A study of Mus musculus with 12 samples.

Results

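Mouse embryonic stem cells of strain 129 that had been differentiated for 3 days as embryoid bodies (EBs) were compared with the same kind of cells differentiated for 3 days as a monolayer (ML). The comparison used 4 of the 12 arrays of the series, 2 for EB day 3 and 2 for ML day 3, and every non-control probe on them. The labels gave no genotype, added factor or medium for either group, and named the 2 samples of each group as clone 1 and clone 2 (here replicates 1 and 2). The series' design text describes 2 independent experiments at each time by different people. The other groups were undifferentiated cells, EB days 1 and 4 and ML day 1, with 2 arrays each. The p-values measure only the spread between these arrays. All 4 day 3 arrays were scanned on 1 day. The EB arrays of days 1 and 3 were on 1 slide and the ML arrays of days 1 and 3 on another. Culture format and slide therefore cannot be told apart at day 3. Day 1 values of the same slides are given further below, for some lists and some genes.

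An EB is a ball of differentiating cells that floats free, whereas a monolayer is spread on a culture surface. In both formats stem cells pass through states like the early mouse epiblast and primitive streak, where Nodal and Wnt signals turn on T-box and homeobox regulators and cells leave as mesoderm or definitive endoderm. The definitive endoderm is known by the transcription factors Sox17, Foxa2, Hhex and Lhx1, the secreted antagonist Cer1 and the chemokine receptor Cxcr4. Cells that spread on a stiff surface are known to build actin fibres and to send YAP, a partner of the DNA-binding TEAD proteins, and the coactivator of the serum response factor SRF into the nucleus, where they turn on genes such as Ccn1, Ccn2, Ankrd1 and Thbs1.

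Each level below is the log2 signal of a gene's brightest probe minus the 75th percentile of its array, so 0 is that percentile. Each difference is EB minus ML on the log2 scale with its standard error (n = 2 arrays a group). That error rests on 1 spread per gene shared by all 6 groups and moderated by limma, not on the 4 arrays alone. The 4 arrays were alike in brightness, with 75th percentiles of 537.51 to 595.63 intensity units and 59.5% to 60.6% of the 43379 non-control spots flagged in the scanner files as well above background. The replicates were not equally close. Their SD pooled over genes was 0.563 for ML day 3, the largest of the 6 groups, and 0.415 for EB day 3. The shared error thus tends to understate the spread of ML day 3. The ML day 3 arrays correlated at 0.971 across genes, and 3238 of 17729 genes (18.3%) differed by 2-fold or more between them, against 0.985 and 1464 genes (8.26%) for EB day 3. All 7 pluripotent cell markers (Pou5f1, Sox2, Nanog, Zfp42, Esrrb, Tdgf1 and Dppa5a) were well above background on all 4 arrays and none was called.

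Across all genes 588 of 17729 passed the threshold, an adjusted p below 0.05 in limma after Benjamini-Hochberg, and are said here to be called (3.32%), 286 of them higher in EBs (1.61%) and 302 lower (1.7%). The absolute log2 difference of a called gene was 2.07 at the median and 0.86 at the least. The difference of all genes had a median of 0.02 and was positive in 52.3% of them. In all 588 both EB arrays lay on the same side of both ML arrays, as they did in 20.9% of all genes tested for higher and 19.6% for lower. Of the genes higher in EBs, 80 were not well above background on either ML array, and 52 of those lower were not on either EB array. The calls depended on single arrays. Without EB replicate 1, 497 genes were called (339 of the 588), without EB replicate 2, 112 (96), without ML replicate 1, 150 (127), and without ML replicate 2, 2483 (554). Only 77 genes (0.434%), 49 higher and 28 lower, were called in each of these 4 fits, and a fit of the 4 arrays alone, with 2 residual degrees of freedom, called 0, with 1947 genes at an unadjusted p under 0.05. Array weights came out the same for both arrays of a group (0.359 for ML day 3 and 1.02 for EB day 3). They thus weighted groups by their spread, not single arrays, and 74 genes were called with them. By list the counts were then 7 higher and 0 lower for definitive endoderm, 1 and 1 for the streak and 0 and 0 for mesoderm. Extraembryonic endoderm and guidance had 3 and 0 each, Wnt 2 and 0, actin targets 0 and 5 and the integrated stress response 0 and 1. A lone array was taken to vary like the other groups. Of the genes said below to be called in all 4 fits, Mesp2 and Thbs1 (limma adjusted p = 0.0541 for both), Rspo3 (0.0729) and Adam19 (0.0748) were not called with array weights. A call said below to have ended did so when the array named was left out.

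**Figure D1:**
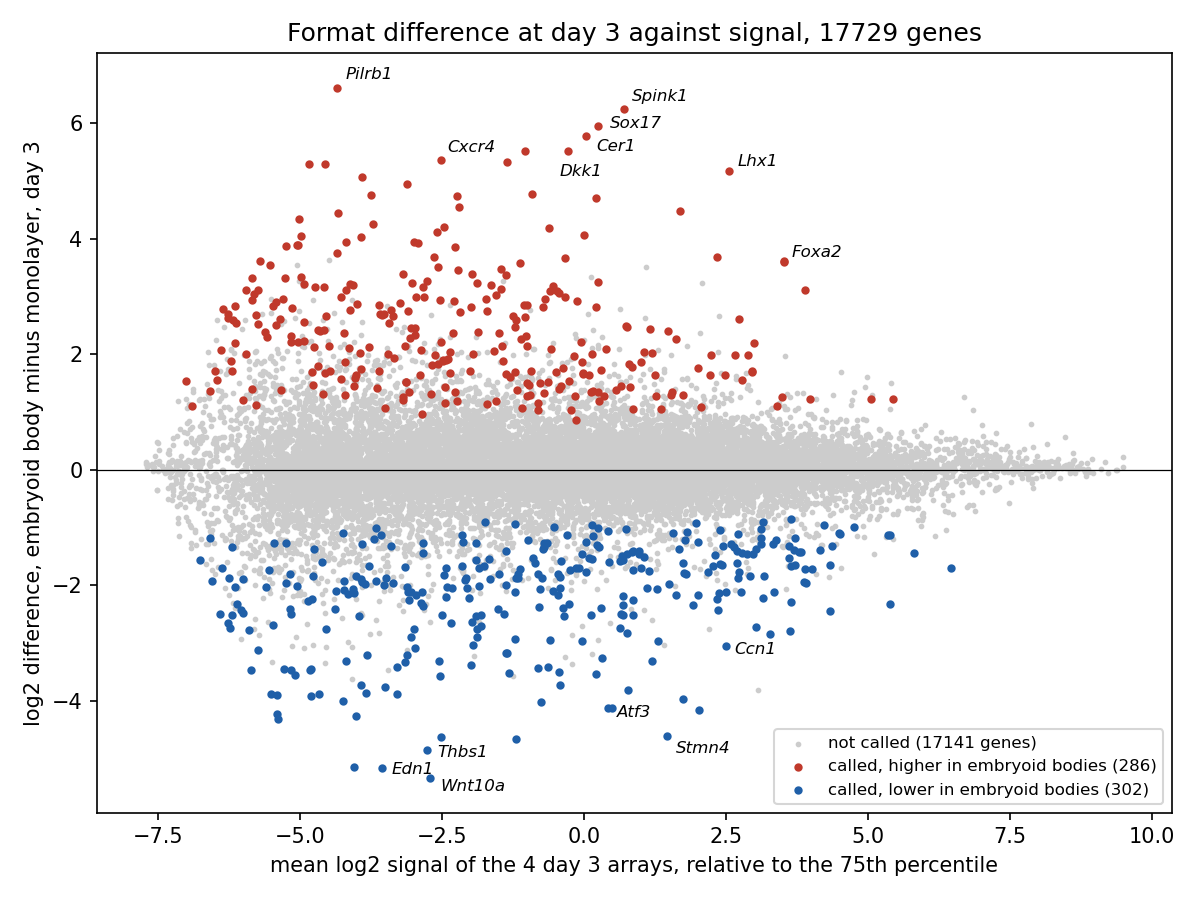
Each point is a gene, with its mean level over the 4 day 3 arrays on the horizontal axis and its log2 difference, EB day 3 minus ML day 3, on the vertical axis. The 286 genes called higher and the 302 called lower are coloured, and some called genes are labelled by name.

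The endoderm regulators were the clearest group higher in EBs. Of 20 tested genes of the definitive endoderm list 12 were called higher and 0 lower, against 1.61% and 1.7% of all genes. The list's median difference was 2.34, against 0.02 for all genes. Like every list here, it was chosen with earlier results of these data known. The level of Sox17, an HMG-box factor required for endoderm (probe at chr1:4481503-4481562, build mm9), was 2.76 and 3.67 in EB replicates 1 and 2 and -1.85 and -3.61 in ML replicates 1 and 2. Both EB arrays were thus above both ML arrays, and undifferentiated cells were at a mean of -2.33. The difference was 5.95 ± 0.52 (limma adjusted p = 0.00152), 5.06 without ML replicate 2 and 6.83 without ML replicate 1. In bulk RNA, fewer cells of a type and less RNA per cell cannot be told apart, here and for each gene below.

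Cer1, which binds and blocks Nodal and BMP ligands outside the cell (chr4:82527731-82527790), had levels of 2.65 and 3.22 in EBs and -2.59 and -3.10 in ML. Its replicates were close in both formats and the groups did not overlap. The difference was 5.78 ± 0.58 (limma adjusted p = 0.00237), 54.9-fold. Cxcr4, the receptor of the chemokine CXCL12 (chr1:130485079-130485138), stood at -0.49 and 0.81 in EBs and at -4.82 and -5.59 in ML, where 1 of 2 arrays was well above background. The groups lay far apart, with a difference of 5.36 ± 0.61 (limma adjusted p = 0.00364), 4.71 without EB replicate 2 and 6.01 without EB replicate 1. Lhx1, a LIM homeobox factor of the anterior streak and head organiser (chr11:84333091-84333150), was at 5.01 and 5.29 in EBs and 0.60 and -0.65 in ML. It was high on both EB arrays, and its difference was 5.18 ± 0.56 (limma adjusted p = 0.00304), 4.55 without ML replicate 2 and 5.80 without ML replicate 1. Hhex, a homeobox factor of the anterior endoderm (chr19:37514969-37515028), had levels of 1.89 and 2.08 against -0.79 and -0.21, a 5.6-fold difference (2.49 ± 0.26, limma adjusted p = 0.00282). These 5 genes were called whichever day 3 array was left out.

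Other endoderm genes were less certain. The forkhead factor Foxa2 (chr2:147868698-147868757) was at 5.50 and 5.15 in EBs and 1.74 and 1.68 in ML, a difference of 3.61 ± 0.68 (limma adjusted p = 0.025), and the homeobox factor Gsc (chr12:105709426-105709485) was at 4.28 and 3.80 against 1.09 and 1.79, 2.60 ± 0.59 (limma adjusted p = 0.0499). No array of either gene overlapped the other group, yet both calls ended without either EB replicate or ML replicate 1. Frzb, a secreted Wnt antagonist, differed by 4.78 ± 0.85, and its call ended without EB replicate 2 or ML replicate 1. Otx2, a homeobox factor of the epiblast and anterior endoderm, missed the threshold at 1.21 ± 0.28 (limma adjusted p = 0.0514). The list's count was 9 without EB replicate 1, 6 without EB replicate 2, 9 without ML replicate 1 and 14 without ML replicate 2. All 4 genes given as markers of the comparison were called, but Thbs1, which encodes a matrix glycoprotein, was lower in EBs whereas Sox17, Cer1 and Cxcr4 were higher.

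**Figure D2:**
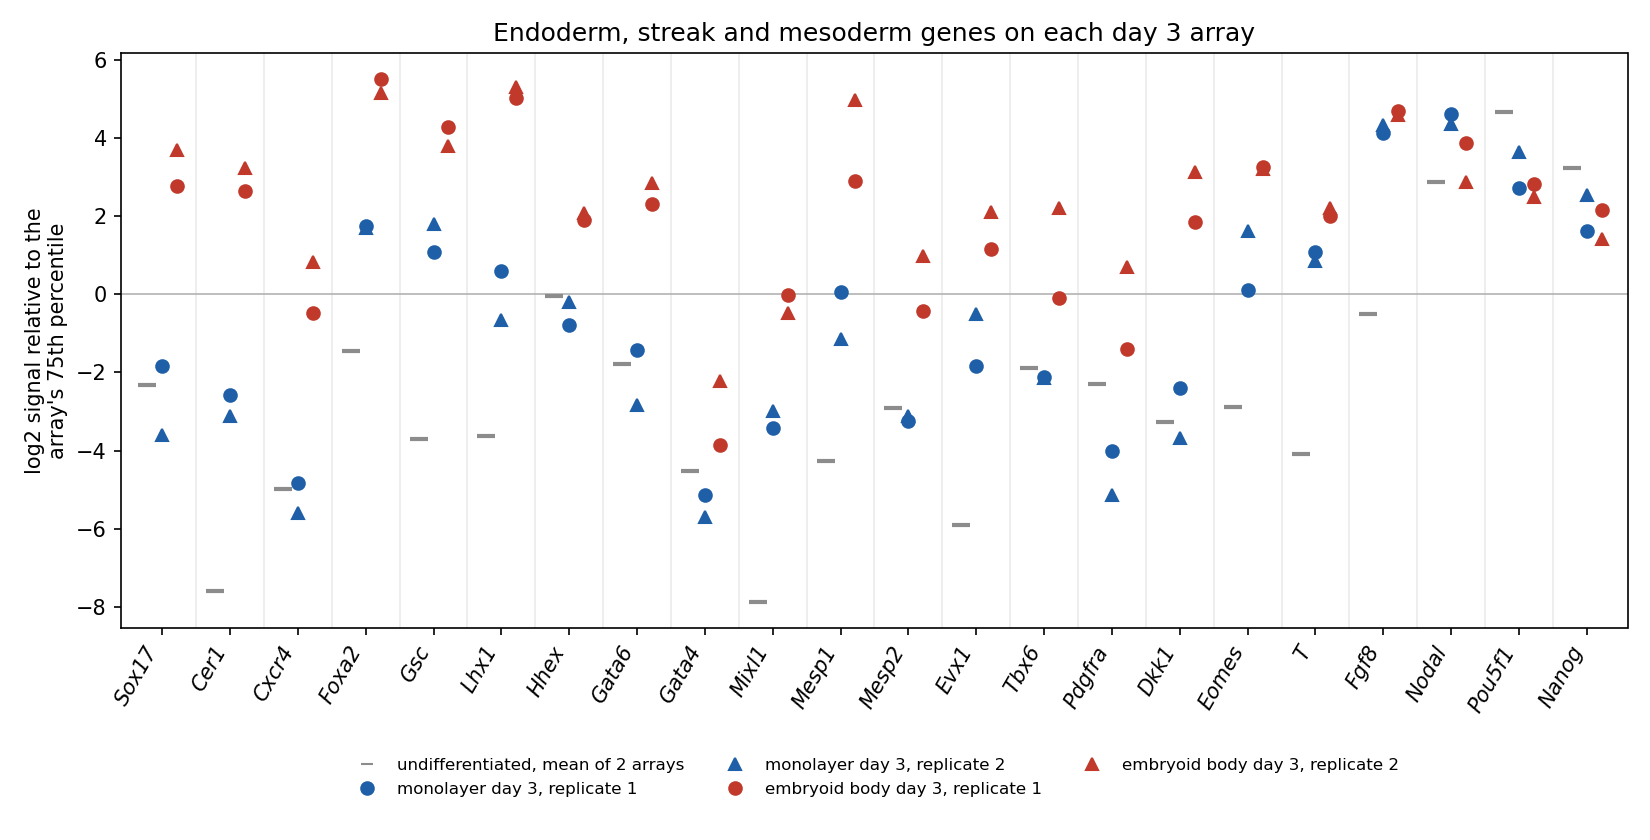
Levels of endoderm, streak and mesoderm genes, in log2 units relative to the array's 75th percentile, with 1 point for each array of EB day 3 (red) and ML day 3 (blue), circles for replicate 1, triangles for replicate 2 and a grey tick at the mean of the 2 undifferentiated arrays. Sox17, Cer1, Cxcr4 and Lhx1 show wide gaps between the formats, whereas T, with a difference of 1.14, does not.

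Several of these regulators are also used by extraembryonic endoderm, the layer that lines the yolk sac. Gata6, a zinc finger factor of primitive endoderm and of mesendoderm (chr18:11085039-11085097), had levels of 2.30 and 2.84 in EBs and -1.43 and -2.83 in ML. The EB arrays were both above the ML arrays, and the difference was 4.70 ± 0.45 (limma adjusted p = 0.00223), 4.00 without ML replicate 2 and 5.40 without ML replicate 1. The 3 Gata6 probes gave differences from 0.88 to 4.70. Spink1, a secreted trypsin inhibitor (chr18:43887802-43887858), was at 3.48 and 4.18 in EBs and -2.74 and -2.09 in ML, a 75.9-fold difference (6.25 ± 0.53, limma adjusted p = 0.00138). Gata6 and Spink1 were called in each fit that left out a day 3 array. Gata4, a partner of Gata6, differed by 2.37 ± 0.46 (1.56 without EB replicate 2 and 3.18 without EB replicate 1), and its call ended without EB replicate 2 or ML replicate 1. Gata4 was well above background on 1 of the 2 ML arrays, and its 2 probes gave 2.37 and 3.74.

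The list of extraembryonic endoderm genes as a whole did not lean one way. Of 26 tested members 7 were called higher and 2 lower, and the median of the 26 was -0.02. The 7 included Sox17 and Foxa2, which the definitive endoderm list also holds, and Pdgfra and Gata4, which the mesoderm list holds. Lrp2, the endocytic receptor megalin of visceral endoderm and other absorptive epithelia, was 1 of the 2 lower, with levels of 0.37 and -0.84 in EBs and 4.73 and 2.74 in ML. It was higher on both ML arrays. The difference was -3.97 ± 0.69 (limma adjusted p = 0.0203), -4.96 without ML replicate 2 and -2.97 without ML replicate 1, and the call ended without EB replicate 2 or ML replicate 1. Of 7 markers that define the extraembryonic type (Afp, Ttr, Apoa1, Amn, Cubn, Sox7 and Hnf4a) 5 were tested and 4 were well above background on all 4 arrays, while Ttr and Apoa1 were not above background on both arrays of any group. None of the 5 was called, and their summed level was -0.97 to -0.69 in EBs and -0.06 to 0.22 in ML. The share of this cell type in the result was not tested. The count of the list was 5 higher and 1 lower without EB replicate 1, and 3 and 0 without either EB replicate 2 or ML replicate 1.

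Primitive streak genes split into a group that was higher in EBs and a group that did not pass the test. Of 21 tested members 8 were called higher and 1 lower, against 1.61% and 1.7% of all genes. The list's median difference was 1.66. Mixl1, a paired-type homeobox factor of the streak (chr1:182624310-182624369), was at -0.02 and -0.48 in EBs and -3.43 and -2.98 in ML. Both EB arrays were higher, 7.78-fold on average (2.96 ± 0.43, limma adjusted p = 0.0104), although the call ended without ML replicate 1. Mesp1, a basic helix-loop-helix factor of the first cardiac mesoderm (chr7:86937337-86937396), had levels of 2.89 and 4.96 in EBs and 0.05 and -1.15 in ML. EB replicate 2 was higher than EB replicate 1 for this gene, and both were above ML. Its difference of 4.48 ± 0.68 (limma adjusted p = 0.0118) was 3.44 without EB replicate 2, where the call ended, and 5.52 without EB replicate 1. Its neighbour and relative Mesp2 (chr7:86957849-86957908) was at -0.42 and 0.99 against -3.26 and -3.12, a difference of 3.47 ± 0.41 (limma adjusted p = 0.00455) that was 2.76 without EB replicate 2 and 4.17 without EB replicate 1 and was called in all 4 such fits.

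Other genes known from the posterior streak were less certain. Evx1, a homeobox factor, differed by 2.81 ± 0.54 (2.15 without ML replicate 1 and 3.48 without ML replicate 2), and its call ended without EB replicate 2 or ML replicate 1. Tbx6, a T-box factor of paraxial mesoderm, differed by 3.17 ± 0.69 (2.01 without EB replicate 2 and 4.33 without EB replicate 1), and its call ended without EB replicate 2 or either ML replicate. The Wnt ligand gene Wnt3a differed by 2.99 ± 0.59, and its call ended whichever array was left out.

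The streak genes that did not pass the test include its best known members. T, the Brachyury factor, was at 2.00 and 2.20 in EBs and 1.08 and 0.84 in ML (1.14 ± 0.63, limma adjusted p = 0.397). Eomes, a T-box factor upstream of endoderm and cardiac mesoderm, was at 3.26 and 3.20 against 0.11 and 1.62 (2.36 ± 0.59, limma adjusted p = 0.0686). The groups did not overlap for either gene. Fgf8 (0.41 ± 0.46), Wnt3 (0.24 ± 0.44) and Msgn1 (0.48 ± 0.60) had differences near their standard errors. The 1 member called lower was Fgf17, an FGF ligand (chr14:71038719-71038778), with levels of -2.82 and -3.32 in EBs and -0.58 and -0.51 in ML. It was higher on both ML arrays, 5.75-fold (-2.52 ± 0.26, limma adjusted p = 0.00274), and was called in all 4 fits with an array left out. The list's counts were 3 higher and 1 lower without EB replicate 2 or without ML replicate 1.

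Mesoderm genes followed the streak genes, with a gap between the EB replicates. Of 29 tested genes of nascent, lateral and cardiac mesoderm 10 were called higher and 0 lower, against 1.61% and 1.7% of all genes. The list's median difference was 1.76. With array weights 0 were called in either direction. EB replicate 2 was above EB replicate 1 in 27 of the 29, by a median of 1.66, against -0.04 over all genes. Pdgfra, the PDGF receptor of mesoderm and primitive endoderm (chr5:75593888-75593947), showed this gap, at -1.40 and 0.68 in EBs and -4.01 and -5.13 in ML. Its difference was 4.21 ± 0.75 (limma adjusted p = 0.021), 3.17 without EB replicate 2 and 5.25 without EB replicate 1, and its 2 probes gave 1.86 and 4.21. The call ended without EB replicate 2 or ML replicate 1. Snai1, which represses Cdh1 as cells leave the epithelium, was at 1.40 and 2.58 against -0.50 and -0.45. It differed by 2.46 ± 0.39 (1.88 without EB replicate 2 and 3.05 without EB replicate 1), and its call ended without the same 2 arrays.

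Rspo3, a secreted enhancer of Wnt signalling, had levels of -3.40 and -2.77 in EBs and -6.62 and -7.33 in ML. Neither ML array was well above background, so EBs were at least 5.14-fold higher (fitted difference 3.89 ± 0.47, limma adjusted p = 0.00475). The call held in all 4 fits with an array left out and ended with array weights (limma adjusted p = 0.0729). Kdr, the VEGF receptor of blood and vessel precursors, did not pass the test, at 0.40 and 3.20 in EBs and -0.20 and -2.88 in ML (3.34 ± 0.96, limma adjusted p = 0.107). Of 18 tested blood and endothelium genes 2 were called higher and 1 lower. They were the erythroid factor Gata1 (2.02 ± 0.39), the VEGF receptor gene Flt1 (1.98 ± 0.30) and, lower, the factor Runx1 (-1.22 ± 0.22), whose other probe gave 1.06. Gata1 was well above background on 1 of the 2 ML arrays. The Gata1 and Runx1 calls ended without EB replicate 2 or ML replicate 1, and the Flt1 call without EB replicate 2. Without EB replicate 2 the mesoderm list had 2 members called higher and 1 lower, and without ML replicate 1 it had 3 and 0.

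Few posterior patterning genes were called, and none lower. The shares called higher in the Hox and retinoic acid lists were above that of all genes tested (1.61% higher and 1.7% lower). Of 22 tested Hox and Cdx genes 1 was called, Hoxb3, at 2.05 ± 0.41 for its brighter probe and 0.32 for its other. That call ended without EB replicate 2 or either ML replicate. Cdx2 differed by 1.75 ± 0.55 (limma adjusted p = 0.136) and Hoxb1 by 2.83 ± 1.00 (limma adjusted p = 0.177). Hoxb1 was well above background on 1 of the 2 ML arrays. Of 18 retinoic acid genes 2 were called higher, among them Cyp26a1, which degrades retinoic acid (3.68 ± 0.68) and whose call ended without EB replicate 2 or ML replicate 1.

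Among signalling genes, secreted antagonists and a Nodal co-receptor were higher in EBs. Dkk1, which blocks the Wnt co-receptors LRP5 and LRP6 (chr19:30621424-30621483), was at 1.84 and 3.12 in EBs and -2.40 and -3.68 in ML. All EB values were above all ML values, and the difference was 5.52 ± 0.59 (limma adjusted p = 0.00282), 4.88 without EB replicate 2 and 6.16 without EB replicate 1. Cfc1, the Nodal co-receptor Cryptic (chr1:34594245-34600893), was at 0.82 and 1.84 against -1.51 and -1.67, 7.58-fold higher (2.92 ± 0.31, limma adjusted p = 0.00282). Dkk1 and Cfc1 were called in all 4 fits with an array left out.

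Of 28 tested Wnt ligands, antagonists and targets 8 were called higher and 2 lower, against 1.61% and 1.7% of all genes. The list's median was 1.26. The 2 lower were ligands. Wnt6 was at -2.52 and -2.03 in EBs and 2.73 and 0.17 in ML, and Wnt4 at -2.87 and -2.17 against 1.64 and 0.19. ML replicate 1 was the highest array for both. The Wnt6 difference was -3.73 ± 0.66 (-5.01 without ML replicate 2 and -2.45 without ML replicate 1), and the call ended without either EB replicate. The Wnt4 difference was -3.43 ± 0.58 (-4.16 without ML replicate 2 and -2.70 without ML replicate 1), and the call ended without either EB replicate or ML replicate 1. The Wnt counts were 2 higher and 0 lower without EB replicate 2, and 5 and 1 without ML replicate 1.

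In the Nodal pathway 3 of 24 tested genes were called higher and 1 lower, at a median of 0.01. Besides Cfc1 and Cer1, the activin and Nodal receptor gene Acvr2b was 2.13-fold higher (1.09 ± 0.24), with a call that ended without either EB replicate or ML replicate 1. Nodal was at 3.86 and 2.86 in EBs and 4.61 and 4.35 in ML (-1.12 ± 0.33, limma adjusted p = 0.116). Its antagonists Lefty1 (-0.52 ± 0.68) and Lefty2 (-0.09 ± 0.37) had differences within their standard errors, and for Lefty1 the EB replicates themselves stood apart, at 4.46 and 1.74.

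Of 23 BMP genes 1 was called, the homeobox target Msx1, with levels of 1.68 and 2.46 in EBs and 0.40 and -0.34 in ML. EBs were 4.11-fold higher (2.04 ± 0.32, limma adjusted p = 0.0137), and the call ended without EB replicate 2. Bmp4 was at -1.55 and 0.86 against -0.73 and -1.45, so that its groups overlapped (0.74 ± 0.72). Of 21 FGF genes 2 were called higher, the ligand genes Fgf3 (4.12 ± 0.57, 3.07 without EB replicate 2 and 5.17 without EB replicate 1) and Fgf10 (3.93 ± 0.61, 3.00 and 4.86 without the same arrays). Fgf10 was well above background on 1 of the 2 ML arrays. The Fgf3 call ended without ML replicate 1 and the Fgf10 call without EB replicate 2. Of 16 Notch genes 2 were called higher, Mesp2 and the ligand gene Jag1, 2.72-fold (1.44 ± 0.24), and the Jag1 call ended without EB replicate 2 or ML replicate 1.

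Receptors that steer migrating cells were among the genes higher in EBs. Of 35 tested guidance genes and chemokine receptors 10 were called higher and 2 lower, against 1.61% and 1.7% of all genes. The list's median was 0.88. Sema6d, a membrane semaphorin (chr2:124493141-124493200), was at -0.16 and 0.44 in EBs and -4.29 and -4.92 in ML, 26.8-fold higher (4.74 ± 0.42, limma adjusted p = 0.00168). Ackr3, a scavenging receptor for the same chemokine as Cxcr4 (chr1:92111803-92111862), was at -1.39 and -0.20 against -5.03 and -3.94. It was well above background on 1 of the 2 ML arrays. The EB values of both genes were above all ML values. The Ackr3 difference was 3.69 ± 0.46 (limma adjusted p = 0.0053), 3.09 without EB replicate 2 and 4.28 without EB replicate 1. Sema6d and Ackr3 were called in all 4 fits with an array left out.

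The semaphorin and VEGF co-receptor gene Nrp1 was at -2.17 and -0.58 in EBs and not well above background in ML, so it was at least 16.8-fold higher. Its fitted difference was 4.76 ± 0.75, 3.96 without EB replicate 2 and 5.56 without EB replicate 1. The secreted semaphorin Sema3c went the other way, at least 7.19-fold lower in EBs, where neither array was well above background. Its fitted difference was -3.31 ± 0.54, -4.15 without ML replicate 2 and -2.48 without ML replicate 1. Both calls ended without EB replicate 2 or ML replicate 1. The list's counts were 4 higher and 0 lower without EB replicate 2, and 6 and 0 without ML replicate 1.

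Few pluripotency genes were called, as was so for all genes tested (3.32%). Of 10 core pluripotency genes 0 were called, of 19 naive genes 1 was called higher (Sall1, 1.28 ± 0.22, with a call that ended without either EB replicate or ML replicate 1) and of 19 formative and primed epiblast genes 0 were. Pou5f1 was at 2.83 and 2.48 in EBs and 2.73 and 3.63 in ML (-0.53 ± 0.34), and Nanog at 2.16 and 1.40 against 1.63 and 2.54 (-0.31 ± 0.37). Their groups overlapped, as did those of Sox2 (0.27 ± 0.35) and Klf4 (0.02 ± 0.45). Zfp42 differed by 0.52 ± 0.41 and the epiblast ligand gene Fgf5 by 0.71 ± 0.58. Differences of the size of these standard errors were not detectable with 2 arrays a group.

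Few neural and epithelial genes were called either. The early neural and the transition list, with 1 of 20 called in a direction, were still above the all-gene shares (1.61% higher and 1.7% lower). Of 20 early neural genes 1 was called in each direction. The neurofilament gene Nefl was lower in EBs, at 2.97 and 1.47 against 5.12 and 4.94 (-2.80 ± 0.49, -3.55 without EB replicate 1 and -2.05 without EB replicate 2), and its call ended without EB replicate 2 or ML replicate 1. Sox1 had a low level on all 4 arrays, from -4.46 to -3.88, but was well above background on each. Of 20 genes of the epithelial to mesenchymal transition only Snai1 was called. Cdh1, the epithelial cadherin, differed by -0.39 ± 0.25 and Cdh2, the cadherin of cells that have left the epithelium, by 2.11 ± 0.55 (limma adjusted p = 0.0783). Of 28 keratins and claudins 0 were called, with a median difference of -0.44.

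The actin, YAP and SRF target genes were the clearest group lower in EBs. Of 29 tested members 0 were called higher and 14 lower, against 1.61% and 1.7% of all genes. The median was -1.68, and all 29 had a negative difference, whereas 52.3% of all genes had a positive one. The list was put together from genes known to respond to cell spreading, but it was chosen with earlier results of these data known. Thbs1 (chr2:117951775-117951834), a matrix glycoprotein that activates latent TGF-beta, was at -5.19 and -5.20 in EBs and 0.53 and -1.19 in ML. Neither EB array was well above background, so EBs were at least 29.1-fold lower. The fitted difference was -4.86 ± 0.61 (limma adjusted p = 0.00543), -5.72 without ML replicate 2 and -4.01 without ML replicate 1. Ccn1 (chr3:145310187-145310246), a matricellular protein and standard YAP target, was at 0.87 and 1.09 in EBs and 4.32 and 3.74 in ML. It was high on both ML arrays, 8.29-fold on average (-3.05 ± 0.35, limma adjusted p = 0.00364). Thbs1 and Ccn1 were called whichever day 3 array was left out.

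Its relative Ccn2 (chr10:24318281-24318340) was at 2.71 and 2.29 in EBs and 4.95 and 4.64 in ML, 4.9-fold lower in EBs (-2.29 ± 0.31, limma adjusted p = 0.00761), with a call that ended without EB replicate 2 or ML replicate 1. Ankrd1 (chr19:36186809-36186868), a nuclear and sarcomeric protein gene used as a YAP readout, was at -6.74 and -4.83 against -2.12 and -2.0. The EB arrays were below both ML arrays, although 1 of the 2 EB arrays was not well above background. Its difference was -3.73 ± 0.59 (-4.68 without EB replicate 2 and -2.78 without EB replicate 1), and the call ended without ML replicate 1. Acta1, an SRF-driven actin gene, was at -1.26 and -1.35 against 2.90 and 1.01. Its difference was -3.26 ± 0.58 (-4.21 without ML replicate 2 and -2.32 without ML replicate 1), and the call ended without either EB replicate or ML replicate 1. The list's count was 10 without EB replicate 1, 5 without EB replicate 2, 6 without ML replicate 1 and 18 without ML replicate 2.

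The list leaned the same way at day 1, with a median difference of -0.97 against -0.06 for all genes. Of its 29 tested members 28 were negative there, but only 2 were called lower, against 0.062% of all genes. Ankrd1 was 1 of the 2 (limma adjusted p = 0.023), at least 10.1-fold lower in EBs, where neither day 1 array was well above background. ML replicate 1 was above ML replicate 2 in 26 of the 29, by a median of 0.38, against -0.12 over all genes.

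**Figure D3:**
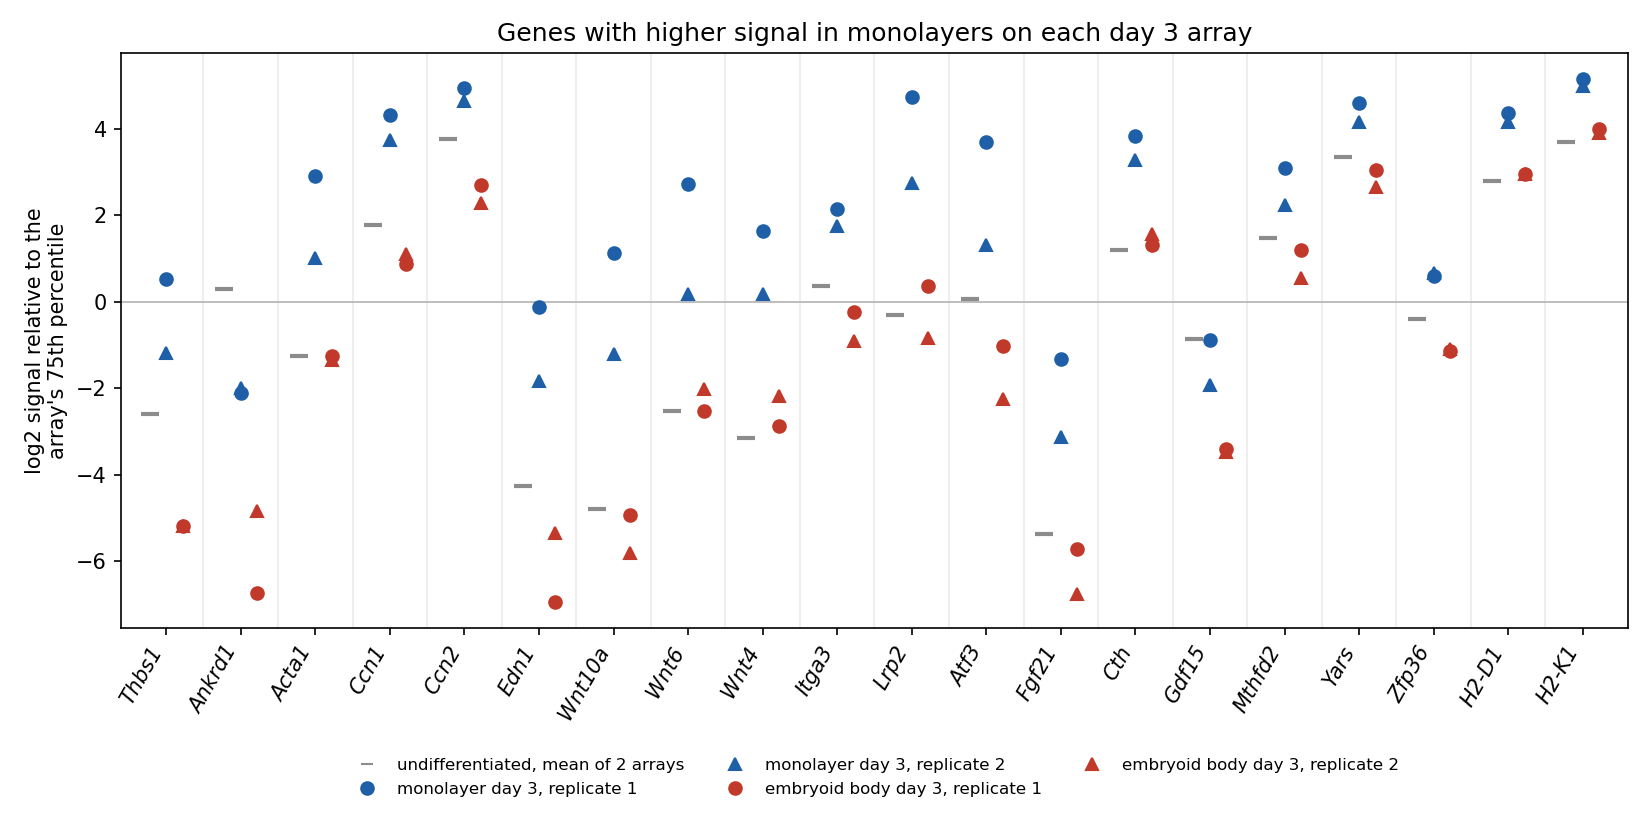
Levels of genes that were higher in the monolayer, in log2 units relative to the array's 75th percentile, drawn with 1 point for each array of EB day 3 (red) and ML day 3 (blue), circles for replicate 1, triangles for replicate 2 and a grey tick at the mean of the 2 undifferentiated arrays. Thbs1 and Ccn1 show both ML arrays above both EB arrays, and ML replicate 1 is the higher ML array for most of the genes drawn.

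The promoters of 2 YAP targets and of Cer1 are shown because they carry the letters searched for beside these results. They are the 250 bases before the annotated start from RefSeq (build GRCm38.p6), on the minus strand in all 3, at chr3:145649986-145650235 for Ccn1, chr19:36119845-36120094 for Ankrd1 and chr4:82885152-82885401 for Cer1. Capitals mark the TEAD element GGAATG, which in Ccn1 lies on the opposite strand, and in Cer1 the homeodomain core TAATTA.
Ccn1: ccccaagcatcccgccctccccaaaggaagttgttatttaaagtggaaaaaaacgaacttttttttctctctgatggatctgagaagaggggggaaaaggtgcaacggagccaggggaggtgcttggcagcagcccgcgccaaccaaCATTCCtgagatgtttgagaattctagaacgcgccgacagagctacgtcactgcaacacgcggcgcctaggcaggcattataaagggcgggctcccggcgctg
Ankrd1: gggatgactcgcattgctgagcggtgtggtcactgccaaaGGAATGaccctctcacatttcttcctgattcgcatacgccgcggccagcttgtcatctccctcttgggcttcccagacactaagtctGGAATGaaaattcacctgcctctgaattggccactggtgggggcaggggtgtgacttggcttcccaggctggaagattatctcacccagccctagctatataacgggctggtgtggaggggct
Cer1: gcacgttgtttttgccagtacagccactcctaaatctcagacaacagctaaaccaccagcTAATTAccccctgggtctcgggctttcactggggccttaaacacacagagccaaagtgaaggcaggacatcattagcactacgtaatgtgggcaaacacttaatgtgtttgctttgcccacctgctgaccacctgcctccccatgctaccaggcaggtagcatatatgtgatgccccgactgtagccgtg
GGAATG, searched on both strands, occurred in 13 of the 24 promoters found for the actin, YAP and SRF list (54.2%). It was in 12.6% of all 32851 promoters of that length, in 17.8% of the 208 of genes called lower and in 10.8% of the 204 of genes called higher. TAATTA, which reads the same on both strands, was in 2 of 16 definitive endoderm promoters (12.5%) and in 4.8% of all. Another motif, TAATCC, bound by bicoid-type homeodomains such as those of Gsc and Otx2, was in 0 of the 16 and in 6.3% of all. The SRF element, the CArG box, was in 4 of the 24 (16.7%) and in 1.5% of all. Each of these motifs had a lower share in the 11849 promoters of genes tested than in all 32851, which are thus not a matched background. The actin, YAP and SRF list was made of known targets, so TEAD elements and CArG boxes can be frequent in it by choice. Their shares in that list therefore cannot serve as a test of the day 3 difference. These are matches of letters in a window and no measure of binding.

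Most laminin, nidogen and integrin genes that were called were higher in the monolayer. Of 30 tested 1 was called higher and 5 lower, against 1.61% and 1.7% of all genes. The counts were 0 higher and 2 lower without EB replicate 1, 0 and 1 without EB replicate 2, without ML replicate 1 or with array weights, and 2 and 9 without ML replicate 2. Itga3, the alpha-3 integrin subunit that binds laminins (chr11:94905987-94906046), was at -0.24 and -0.91 in EBs and 2.14 and 1.75 in ML. EBs were lower on both arrays, 5.73-fold (-2.52 ± 0.29, limma adjusted p = 0.00364), and its 3 probes ranged from -2.58 to -0.90. Lama1, the chain of the first embryonic basement membranes, was the 1 member higher in EBs (1.52 ± 0.34), and its call ended without either EB replicate or ML replicate 1. The perlecan gene Hspg2 (-1.85 ± 0.31) and Sparc (-1.39 ± 0.30) were lower with calls that ended without the same 3 arrays.

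Collagens and proteases did not lean one way. Of 23 collagen genes 3 were called higher and 2 lower, with a median difference of 0.13. Col8a1, a short-chain collagen of vessel walls (chr16:57627033-57627092), was at -4.29 and -4.33 in EBs and -0.93 and -0.55 in ML, 11.9-fold lower (-3.57 ± 0.45, limma adjusted p = 0.00543). It was called in all 4 fits with an array left out and at day 1 too (-3.58 ± 0.45, limma adjusted p = 0.0339). The transmembrane collagens Col13a1 (3.46 ± 0.57, 2.43 without EB replicate 2 and 4.50 without EB replicate 1) and Col23a1 (2.75 ± 0.52, 1.84 and 3.67) were higher. The Col13a1 call ended without ML replicate 1, and that of Col23a1 without EB replicate 2 or ML replicate 1. Of 27 matrix proteases and inhibitors 3 were called higher and 2 lower, with a median of -0.08. Mmp3, the matrix metalloprotease stromelysin-1, was at -1.82 and -2.55 in EBs and not well above background in ML, so EBs were at least 9.57-fold higher (fitted difference 5.30 ± 0.84, limma adjusted p = 0.0137). That call ended without either EB replicate or ML replicate 1. Adam19, a membrane protease of heart and nerve development, was 7.06-fold higher in EBs (2.82 ± 0.34, limma adjusted p = 0.00475) and was called in all 4 such fits, as Itga3 was.

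Markers of feeder fibroblasts had a lower summed level in EBs than in ML. Of 10 markers 8 were tested, 7 were well above background on all 4 arrays, and their summed level was 2.73 to 2.88 in EBs and 3.69 to 3.81 in ML. The tested markers did not all go that way, with differences of 0.86 for Pdgfrb, 0.68 for Prrx1 and 0.09 for Thy1, none of them called. Postn and Lum were not above background on both arrays of any group. Of the markers 1 was called, Col1a1, the main collagen of fibroblasts, 4.49-fold lower in EBs (-2.17 ± 0.46, limma adjusted p = 0.0392), and its call ended without either EB replicate or ML replicate 1. In the wider list of 16 tested fibroblast genes 3 were called lower and 0 higher at a median of -1.37, with a median of 0.28 between ML replicate 1 and ML replicate 2. The part of such cells in the actin and matrix results was not tested.

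Some genes of the integrated stress response were lower in EBs. This response raises amino acid synthesis and import through Atf4. Of its 27 tested genes 0 were called higher and 8 lower, against 1.61% and 1.7% of all genes. The difference was negative in 26 of 27 (median -1.50), whereas it was positive in 52.3% of all genes. ML replicate 1 was above ML replicate 2 in 26 of the 27, by a median of 1.13. Cth, the enzyme that makes cysteine from cystathionine (chr3:157557667-157557726), was at 1.32 and 1.58 in EBs and 3.84 and 3.29 in ML. EBs were lower on both arrays, 4.33-fold (-2.12 ± 0.25, limma adjusted p = 0.00475), and Cth was the member named here whose call did not end with any array left out.

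Atf3, a stress-induced transcription factor, was at -1.03 and -2.24 in EBs and 3.70 and 1.30 in ML. Its difference was -4.14 ± 0.73, -5.33 without ML replicate 2 and -2.94 without ML replicate 1. Fgf21, a stress hormone gene, was at least 8.84-fold lower in EBs, where neither array was well above background (fitted difference -4.01 ± 0.73, -4.92 without ML replicate 2 and -3.11 without ML replicate 1). Mthfd2, of mitochondrial folate metabolism, differed by -1.78 ± 0.36. These 3 calls ended without EB replicate 2 or ML replicate 1. The list's count was 1 without EB replicate 2, 1 without ML replicate 1 and 21 without ML replicate 2. Its median at day 1, over all members tested, was 0.14. Cth was at -1.30 ± 0.25 there (limma adjusted p = 0.133), Atf3 at -1.14 ± 0.73 and Mthfd2 at 0.26 ± 0.36.

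Of 19 aminoacyl-tRNA synthetases, which charge tRNAs, 3 were called lower (Yars, Cars and Gars, by -1.53 ± 0.27, -1.22 ± 0.23 and -1.11 ± 0.21) at a list median of -0.58. All 3 calls ended without EB replicate 2 or ML replicate 1, and that of Gars also without EB replicate 1. Of 20 immediate early genes 3 were called lower. Zfp36, which binds AU-rich messages and speeds their decay (chr7:29162132-29162191), was at -1.13 and -1.09 in EBs and 0.60 and 0.66 in ML. The replicates nearly coincided in each format, and the difference, 3.34-fold, was -1.74 ± 0.18 (limma adjusted p = 0.00282) and held in all 4 fits. Of 21 p53 targets 0 were called, with a median of -0.78.

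Some class I antigen presentation genes were lower in EBs. Of 18 tested members of the MHC list 3 were called lower and 0 higher, against 1.7% and 1.61% of all genes. The list's median was -0.74. H2-D1 was at 2.95 and 2.96 in EBs and 4.38 and 4.16 in ML (-1.32 ± 0.23), H2-T23 at 1.96 and 1.95 against 3.37 and 3.12 (-1.29 ± 0.21) and H2-K1 at 3.99 and 3.92 against 5.15 and 4.99 (-1.12 ± 0.21). The groups did not overlap for any of them. The replicates were close, but the H2 genes are near-identical copies that a probe may not tell apart, so the gene behind each value is uncertain. All 3 calls ended without EB replicate 2 or ML replicate 1, and those of H2-D1 and H2-K1 also without EB replicate 1.

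The genes with the largest differences lay partly outside these lists. Pilrb1 and Pilra, paired immunoglobulin-like receptor genes beside each other on chromosome 5, were at -1.71 and -0.36 and at -2.67 and -1.14 in EBs. Neither was well above background on an ML array, so EBs were at least 21.3-fold and at least 11.6-fold higher. The fitted differences were 6.62 ± 0.43 (5.94 without EB replicate 2 and 7.29 without EB replicate 1) for Pilrb1 and 5.29 ± 0.51 (4.53 and 6.06 without the same arrays) for Pilra. They belong to a family of similar genes, and cross-hybridisation between its members cannot be told apart from expression of each. Armc3, an armadillo-repeat gene, was at -1.86 and -0.87 in EBs and not above background in ML, at least 16.9-fold higher (fitted difference 5.07 ± 0.52). Prss12, a secreted protease of neurons, was at 0.97 and 2.49 against -2.80 and -4.79 (5.52 ± 0.67, 4.52 without ML replicate 2 and 6.52 without ML replicate 1). These 4 genes were called in all 4 fits with an array left out.

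On the monolayer side the vasoconstrictor gene Edn1 was at -0.13 and -1.83 in ML and not above background in EBs, at least 20.4-fold lower (fitted difference -5.17 ± 0.65, -6.02 without ML replicate 2 and -4.32 without ML replicate 1). Stmn4, a stathmin that binds tubulin, was at -0.70 and -0.97 in EBs and 4.65 and 2.91 in ML (-4.62 ± 0.53, -5.48 without ML replicate 2 and -3.75 without ML replicate 1). Edn1 and Stmn4 were called in all 4 such fits. The Wnt ligand gene Wnt10a was at -4.94 and -5.82 against 1.13 and -1.20 (-5.34 ± 0.68, -6.51 without ML replicate 2 and -4.18 without ML replicate 1), and its call ended without EB replicate 2. Wnt10a was well above background on 1 of the 2 EB arrays. For each of these 3 genes ML replicate 1 was above ML replicate 2. Over all genes called lower that was so for 249 of 302, by a median of 0.49. Among genes called higher, EB replicate 2 was above EB replicate 1 in 212 of 286, by a median of 0.48. The part of these arrays in the counts is given by the fits without them.

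The day 1 arrays of the same slides give the format difference at an earlier time. Culture format and slide cannot be told apart there either, and a gene not called at day 1 may still have differed. At day 1, 12 genes were called between the formats (0.0677%), 1 higher (0.00564%) and 11 lower (0.062%) in EBs. The 1 higher was Mgp, the matrix Gla protein gene, at least 15.9-fold higher, since neither ML day 1 array was well above background, and it is named after its values were seen. The genes called lower at day 3 had a median difference of -0.59 at day 1 and of -1.95 at day 3, 241 of the 302 were negative at day 1, and 8 were called there too. The genes called higher at day 3 had medians of 0.15 at day 1 and 2.27 at day 3, 168 of the 286 were positive at day 1, and 1 was called there. The definitive endoderm list had a day 1 median of 0.37, the streak list 0.15 and the mesoderm list 0.08. Some genes called at day 3 had a difference of the same sign at day 1 that did not pass the test. They were Thbs1 (-3.70 ± 0.61, limma adjusted p = 0.077), Ccn1 (-2.50 ± 0.35, limma adjusted p = 0.0504) and Foxa2 (2.92 ± 0.68, limma adjusted p = 0.199). So were Cer1 (3.89 ± 0.58, limma adjusted p = 0.0551) and Cxcr4 (2.39 ± 0.61, limma adjusted p = 0.248). Neither was well above background on an ML array of day 1, so EBs were at least 3.76-fold and at least 1.95-fold higher. Gata6 was at 0.18 ± 0.45 and Mesp2 at -0.67 ± 0.41.

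The test of the day 3 difference against the day 1 difference, which an equal shift of a slide would leave unchanged, called 43 genes (0.243%). Of these 27 were positive and 16 negative, and 42 were among the 588. The other was the endothelial sialomucin gene Emcn, which was not well above background on any of the 8 arrays and is named after its values were seen. The endoderm and streak regulators Sox17 (4.73 ± 0.73, limma adjusted p = 0.0442), Gata6 (4.52 ± 0.64, limma adjusted p = 0.0285), Mixl1 (4.88 ± 0.61, limma adjusted p = 0.0285) and Mesp2 (4.14 ± 0.59, limma adjusted p = 0.0285) were among the positive ones. Mixl1 was not well above background on either EB array of day 1, so its value here is not exact. Cer1 (1.89 ± 0.82, limma adjusted p = 0.48) and Ccn1 (-0.56 ± 0.49, limma adjusted p = 0.806) did not pass this test. Depending on which array of these 4 groups was left out, it called from 0 genes, when either EB array of day 1 or the second ML array of day 1 was dropped, to 297, without ML day 3 replicate 2.

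**Figure D4:**
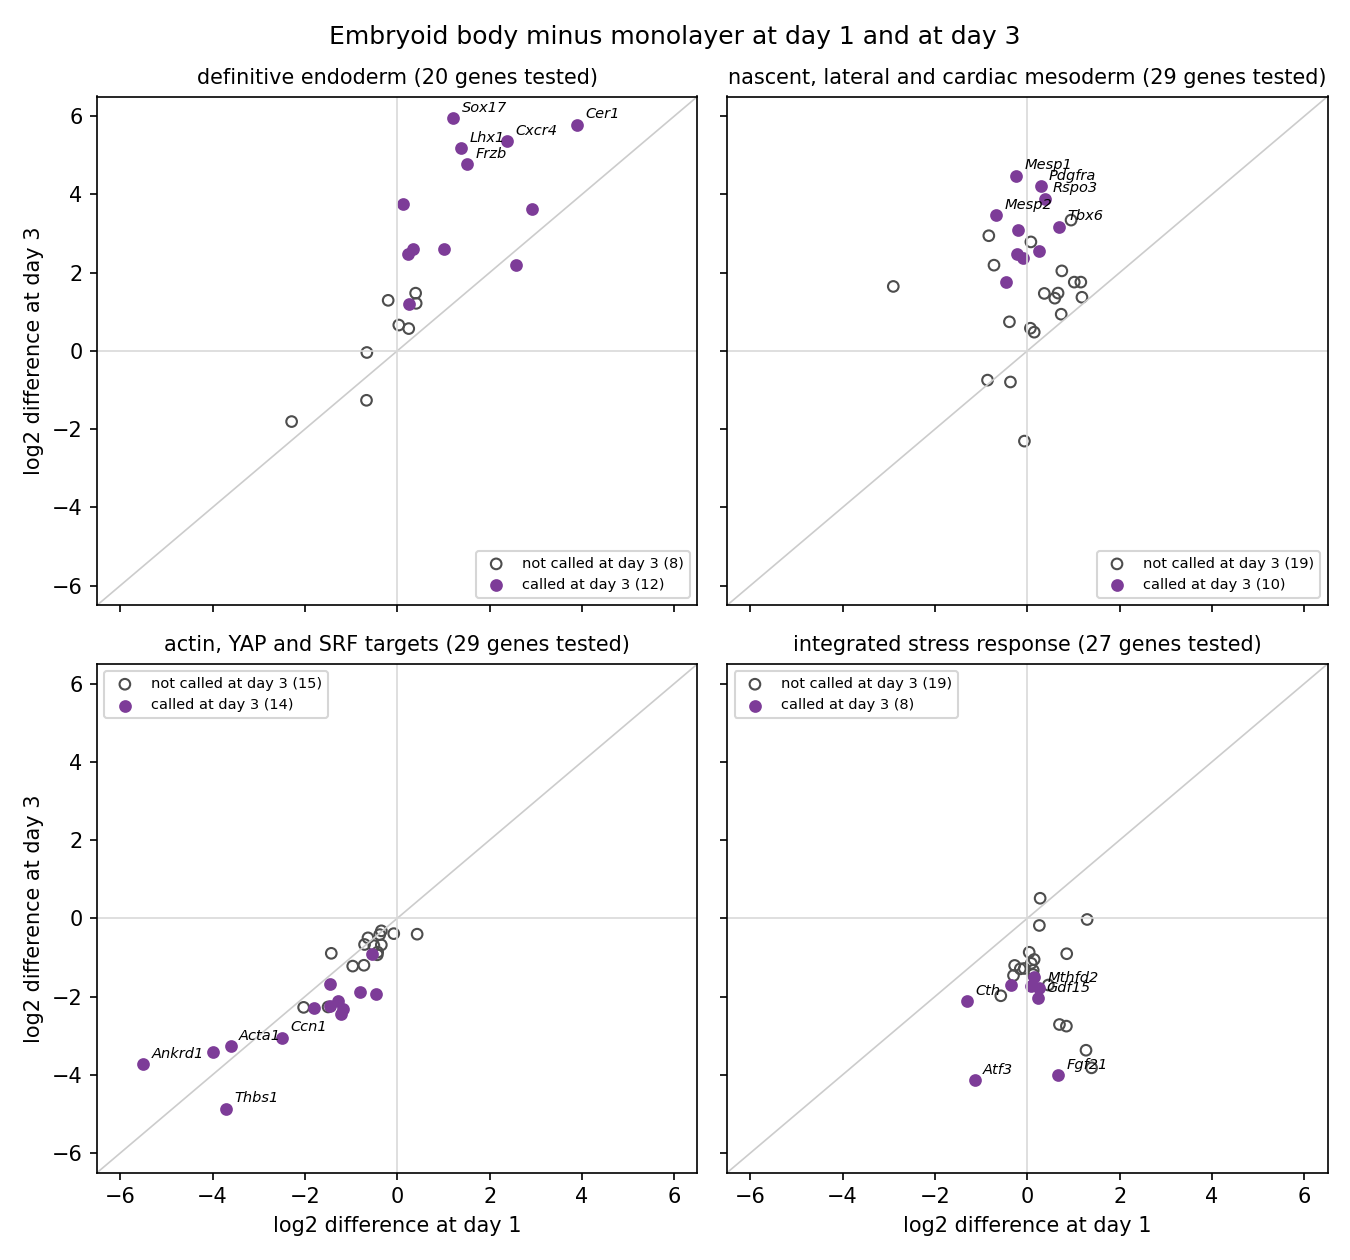
The log2 difference, EB minus ML, at day 1 (horizontal axis) against day 3 (vertical axis) for the tested members of 4 gene lists, 1 panel each, with filled points for genes called at day 3 and a diagonal line where both differences are equal. Of the actin, YAP and SRF targets 28 of 29 lie to the left of 0 at day 1 as well. The day 1 medians of all tested mesoderm and stress genes are 0.08 and 0.14. Among the called stress genes Cth (-1.30) and Atf3 (-1.14) lie to the left of 0 and Mthfd2 (0.26) to the right.

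**Figure D5:**
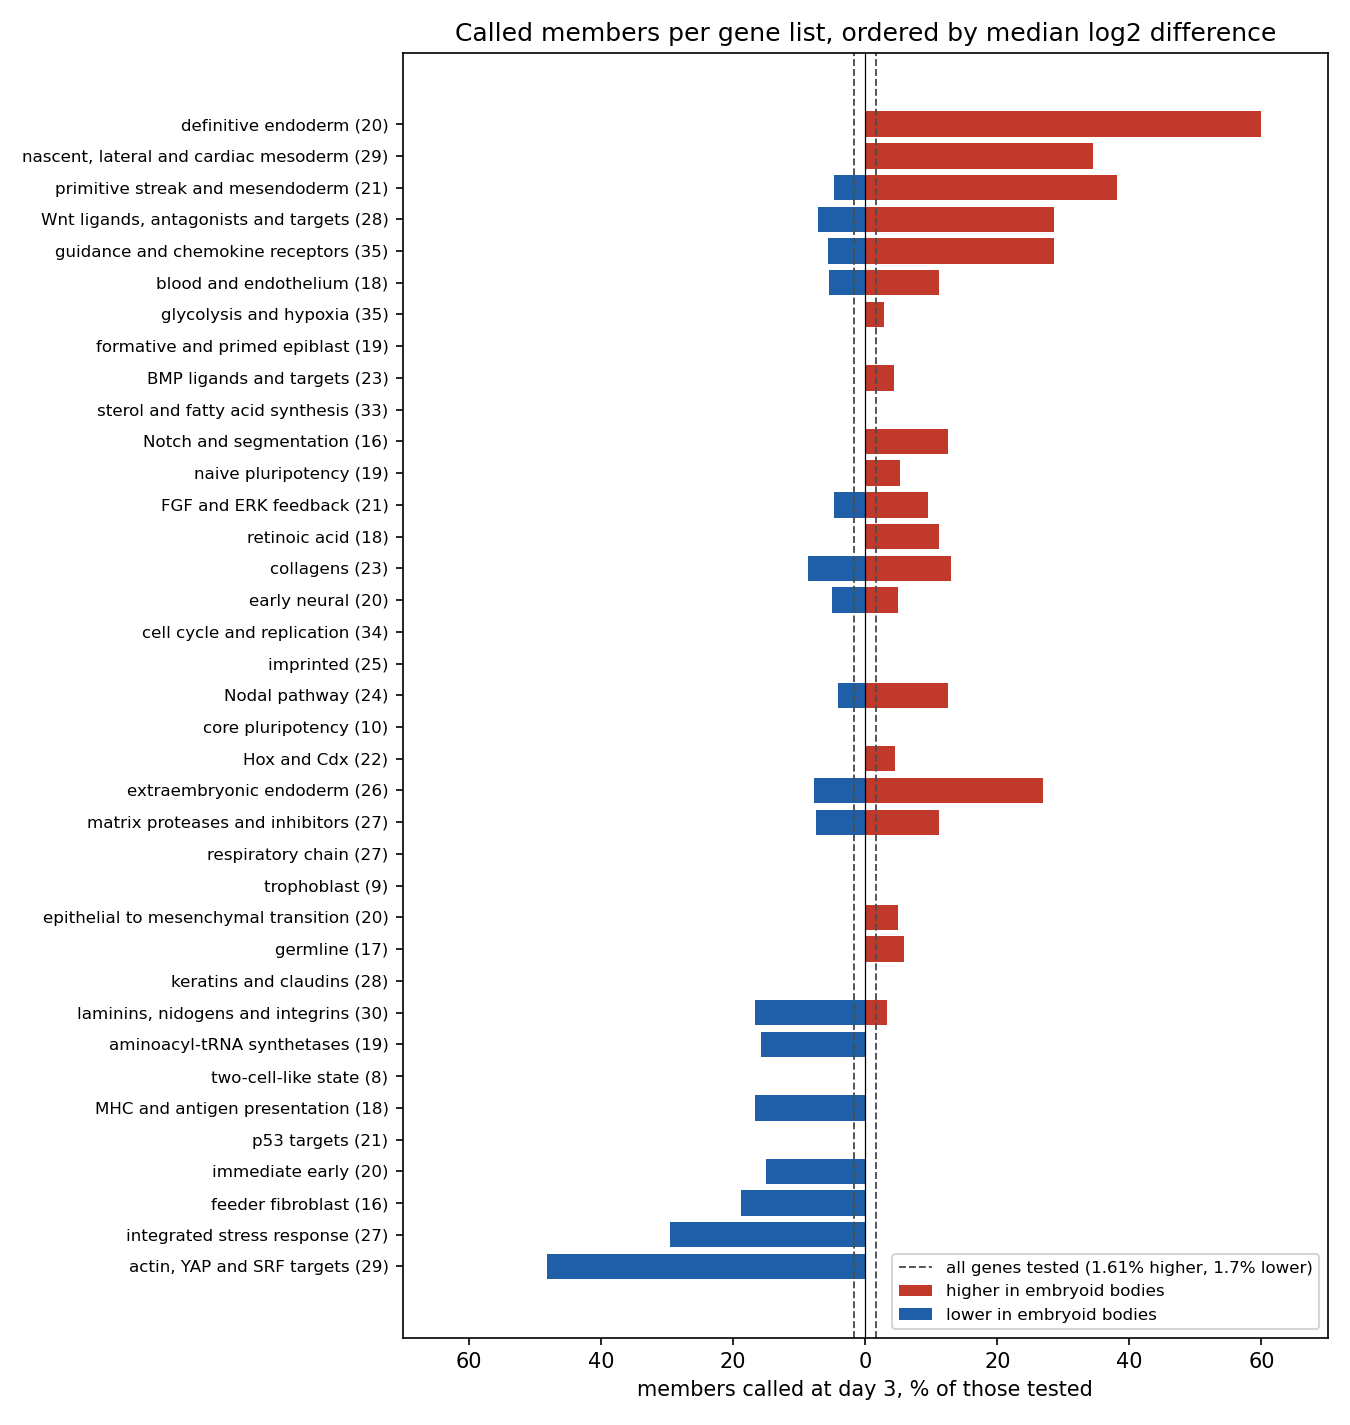
Members called higher (red, to the right) and lower (blue, to the left) in EB day 3 against ML day 3, as a percentage of the members tested, whose number stands behind each list's name; dashed lines mark the shares among all genes (1.61% and 1.7%). Definitive endoderm has 12 higher and 0 lower of 20, and the actin, YAP and SRF targets have 0 higher and 14 lower of 29.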

How the data were processed

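RNA from mouse embryonic stem cells (RNeasy micro kit, per the labels' protocols) was labelled by the submitters as Cy3 cRNA and put on 12 mouse whole-genome arrays, each with 1 sample. The scanner files hold spot intensity, background-subtracted and detrended by Agilent Feature Extraction per the file headers (10.5.1.1, 10.7.3.1 and 10.7.1.1; the submitters' processing notes give 9.5.1.1), and per-spot flags, the other kind of value used, per the file headers. The deposited value table, also intensity, was used only as an alternative.

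The log2 processed signal was centred on each array's 75th percentile, taken over its 43379 non-control spots. Outlier spots were left out (51 to 81 on the day 3 arrays), and 0 spots were saturated. Probes well above background on both arrays of at least 1 group (26176) were kept, and the brightest stood for its gene (17729 genes, 14949 with a symbol). Of 179 called genes with several probes, 6 had probes of opposite sign. Probe positions are those of the files (mm9). The number of arrays limits the precision.

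Limma 3.58.1 in R 4.3.3, with data.table (version 1.17.8), was run on all 12 arrays with 1 mean for each of 6 groups (residual degrees of freedom 6 and, from the prior, 3.19) and adjusted two-sided p-values over all genes by Benjamini-Hochberg, calling a gene at an adjusted p under 0.05. Where a group was not well above background, a fold is a bound (at least N-fold) in which the dim arrays are set no lower than the dimmest probe above background. Lists are described by counts and medians, with no set test. The members and lists were chosen with earlier results of these data known. Genes were named by a rule: a panel of 42 genes, the 12 largest differences in each direction among called genes whose arrays did not overlap, from each list the called members with the largest differences (at most 5), or up to 3 bright members where a list had under 3 called. A few genes that the rule takes in are not reported here. Replicate numbers were not taken to pair the samples, since deviations from the group means correlated at -0.15 to 0.23 between same-numbered arrays. Alternatives were the background correction, normalization, filter, probe rule, arrays fitted, array weights, prior, replicate block and each array left out. Scripts were tested on simulated data. Python 3.11.15, pandas 2.3.3, numpy 2.4.6 and matplotlib 3.10.9 made the tables and plots.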

Additional observations from a re-analysis of the deposited data

Results flagged for a closer look

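For 43 genes the difference between EBs and ML at day 3 differed from that at day 1 by limma's test of the difference itself. The 13 of them that the rule for naming genes takes in are given here as the day 3 difference minus the day 1 difference, on the log2 scale. It was 4.73 for Sox17, 4.52 for Gata6, 4.88 for Mixl1, 4.14 for Mesp2, 7.74 for Spink1, 3.16 for Cfc1, 2.95 for Msx1, 5.14 for Armc3, 5.55 for Pilra and 6.60 for Pilrb1, and it was -2.0 for Zfp36, -2.23 for H2-T23 and -2.33 for H2-K1. Mixl1 was not well above background on either EB array of day 1, nor Armc3, Pilra and Pilrb1 on any array of ML day 3 or of day 1, so these 4 values are not exact. The first 10 were higher in EBs at day 3, and of them Sox17 stood at 1.22 at day 1, while H2-T23 and H2-K1 were at 0.94 and 1.22 at day 1 and at -1.29 and -1.12 at day 3. Of the 43 genes 9 had symbols that start with H2-, near-identical copies whose probes may share signal. With 2 arrays a group no array could be tested for standing apart from its group.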

How the results depend on the processing

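The count of 588 genes at day 3 was 74 with array weights, 376 with no filter on dim probes and 0 in a fit of the 4 day 3 arrays alone, and it lay between 112 and 2483 with 1 day 3 array left out. The count of 43 for the day 3 difference against the day 1 difference was 5 with array weights, 9 in a fit of the 8 arrays of days 1 and 3, 6 with no filter and 23 or 26 with a stricter filter on the 4 day 3 arrays or on all 12, and it lay between 0 and 297 with 1 array left out. The background correction, quantile normalization, the authors' values, the mean of probes and a trended prior kept both counts within 1.5 times. With the replicate block the counts were 609 and 38, and 525 of the 588 genes were called. Of the 97 named genes that were called, 25 were called with array weights, 87 with the other background correction, 88 with quantile normalization, 72 without EB replicate 1, 31 without EB replicate 2, 39 without ML replicate 1 and 94 without ML replicate 2. No named result that was called turned its direction. Signal over background limits the dimmest genes, given as bounds.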

Other observations

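All 33 tested genes of sterol and fatty acid synthesis had a positive difference between EBs and ML at day 3, against 52.3% of all genes. The list's median was 0.73, and 0 of its genes were called by limma. Scd2, a desaturase of fatty acids, was at 5.89 and 5.93 in EBs and 4.52 and 5.19 in ML (1.05 ± 0.29, limma adjusted p = 0.0894), and Fasn, the fatty acid synthase, at 7.60 and 7.04 against 6.42 and 7.06 (0.58 ± 0.32). ML replicate 1 was below ML replicate 2 in all 33, by a median of -1.15. The list's median difference was 0.23 without ML replicate 1 and 1.33 without ML replicate 2. The list's median at day 1 was 0.59. Of 35 glycolysis and hypoxia genes 1 was called higher, the oxygen sensor Egln1 (1.68 ± 0.36), whose call ended without EB replicate 2 or ML replicate 1. The median was 0.78, and it was 0.40 without ML replicate 1 and 1.07 without ML replicate 2. The lactate dehydrogenase gene Ldha was at 8.18 and 8.38 against 6.90 and 8.08. In both lists ML replicate 1 was the low array.

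Of 34 cell cycle and replication genes and 27 respiratory chain genes 0 were called, and 19 of the respiratory chain genes had a negative difference (median -0.12). The replication helicase subunit Mcm6 differed by 0.15 ± 0.19 and the ATP synthase subunit Atp5b by -0.23 ± 0.19. Of 25 imprinted genes 0 were called. The imprinted gene Phlda2 stood at 3.98 and 6.34 in the EB replicates, wider apart than the ML replicates at 5.55 and 5.06. Of 17 germline genes 1 was called higher, the receptor gene Kit (2.26 ± 0.40), whose call ended without either EB replicate or ML replicate 1.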
